A study of Mus musculus with 71 samples.

Results

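The CC and CXC chemokines of fat cells derived from 3T3-L1 and C3H/10T1/2 lines were followed on 71 Affymetrix Mouse 430A arrays. Every gene whose symbol begins with Ccl or Cxcl followed by a number was taken, and only probe sets annotated to a single gene were used. This gave 30 genes (18 CC and 12 CXC) of 12393 named genes on the array, read by 38 probe sets of 22626. A chemokine was called present in a line if any of its 12 group means was 19.9 or more, the 95th percentile of the 27 bacterial control probe sets that serve as negative controls.

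Chemokines are small secreted proteins that steer leukocytes by binding G protein-coupled receptors. In CC chemokines the first pair of cysteines is adjacent, and in CXC chemokines another residue lies between them. Ccl2 and Ccl7 act on Ccr2 and draw monocytes, Cxcl1 and Cxcl5 act on Cxcr2 and draw neutrophils, Cxcl9, Cxcl10 and Cxcl11 act on Cxcr3 of activated T cells and are classic interferon targets, and Cxcl12 acts on Cxcr4. In obese adipose tissue, adipocytes and stromal cells are known sources of Ccl2, and many chemokine genes are targets of NF-kappaB.

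Both lines are mouse fibroblast-like lines that turn into fat cells in culture. 3T3-L1 cells spent the first 2 days of differentiation with insulin, IBMX, dexamethasone and rosiglitazone (RSG) at 100 nM, and C3H/10T1/2 cells spent 6 days with insulin and RSG at 10 µM. RSG is a thiazolidinedione that binds the nuclear receptor PPARγ. All groups, DMSO included, had thus met the drug before a 24-hr washout in DMEM/F12 with BSA. Cells then received 1 µM RSG or its vehicle DMSO for 1, 2, 4, 7, 24 or 48 hrs, with 3 arrays per group, except DMSO at 2 hrs in 3T3-L1, which has 2 arrays (replicates 2 and 3). The labels call them biological replicates of each cell line, the methods state that they were differentiated in separate batches, and the p-values measure the spread between them.

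The scaled arrays had median signals of 50.2 to 64.2 for 3T3-L1 and 38.2 to 46.9 for C3H/10T1/2, and 67.8% to 73.9% against 62.1% to 67.7% of their probe sets lay at or above the presence level. The 3′ to 5′ signal ratios of Gapdh and Actb, which climb as RNA degrades, overlapped between RSG and DMSO in both lines. Of 8 adipocyte marker genes on the array, 7 were present in both lines, and Lep, the leptin gene, was below the presence level on every array. Of 11 leukocyte and macrophage genes, 7 in 3T3-L1 and 5 in C3H/10T1/2 reached it on most arrays. Cd14, Csf1r and Cd68 reached it on all 71, while Itgam reached it on none, and Ptprc, the pan-leukocyte gene for CD45, on 1 of 35 3T3-L1 arrays and 0 of 36 C3H/10T1/2 arrays.

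In 3T3-L1 adipocytes 23 of the 30 chemokine genes were present (13 CC and 10 CXC), and in C3H/10T1/2 adipocytes 19 were (10 CC and 9 CXC). Both lines shared 18 of them: Ccl1, Ccl2, Ccl4, Ccl5, Ccl6, Ccl7, Ccl8, Ccl9, Ccl17, Ccl25, Cxcl1, Cxcl5, Cxcl10, Cxcl12, Cxcl13, Cxcl14, Cxcl16 and Cxcl17. Ccl22, Ccl27a, Ccl28, Cxcl2 and Cxcl11 were present only in 3T3-L1, and Cxcl9 only in C3H/10T1/2. Ccl3, Ccl11, Ccl12, Ccl20, Ccl24 and Cxcl15 were present in neither line. The highest signals of those 6 genes on any array were 7.0 for Ccl3, 25.3 for Ccl11, 6.4 for Ccl12, 17.6 for Ccl20, 20.7 for Ccl24 and 31.6 for Cxcl15.

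Tests were run on the probe sets that reached the presence level, 27 of the 38 in 3T3-L1 cells, as against 21 in C3H/10T1/2. Some passed through 1 treatment only: probe sets of Ccl6, Ccl22, Ccl25 and Cxcl2 passed through DMSO groups alone in 3T3-L1, as did those of Ccl1, Ccl6 and Cxcl9 in C3H/10T1/2, while Ccl28 and a second probe set of Cxcl13 passed through RSG groups alone in 3T3-L1. The counts below therefore describe the tested probe sets and not the whole family. With no filter, all 38 probe sets again gave 11 RSG calls over the 6 times in 3T3-L1 and 6 in C3H/10T1/2, but in C3H/10T1/2 cells Ccl2 at 24 hrs was lost (adjusted p = 0.0576) and Ccl11 at 7 hrs, below the presence level in every group mean, was added (0.0203).

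**Figure D1:**
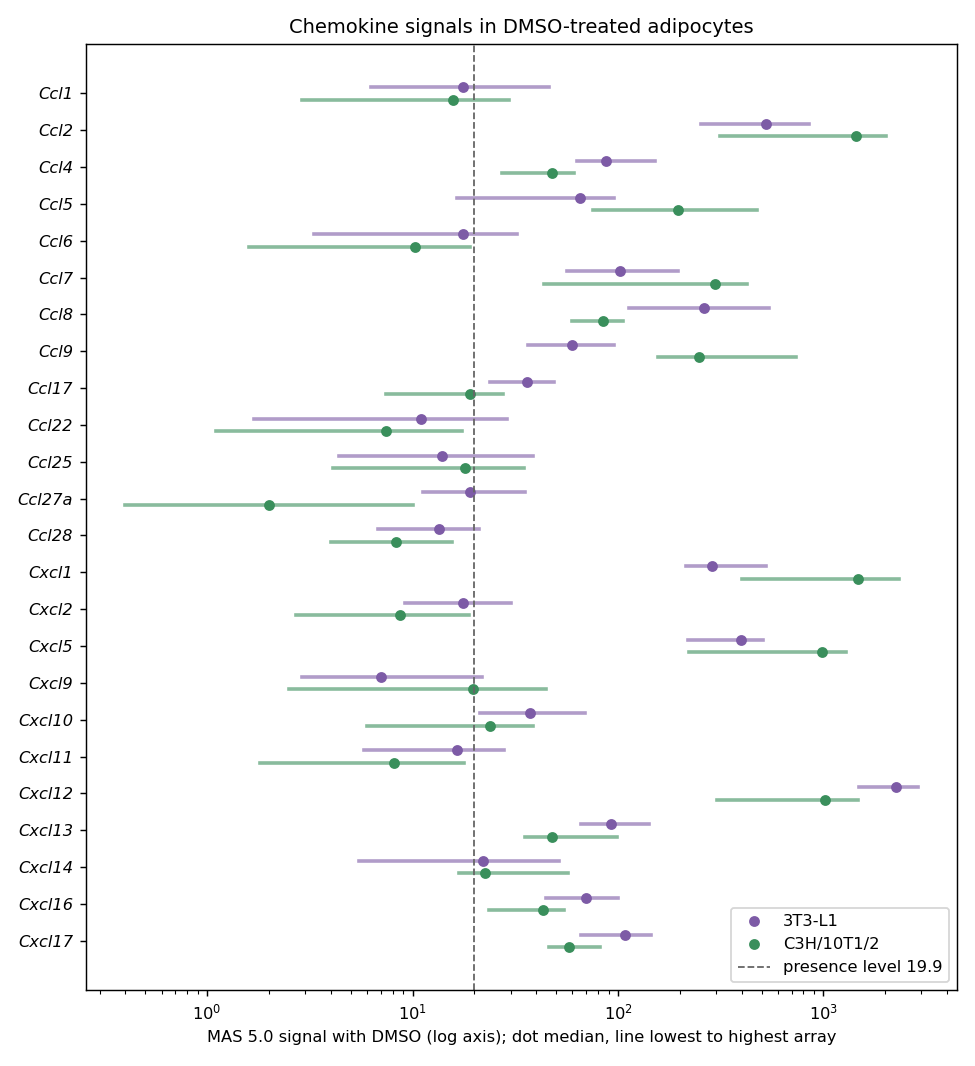
MAS 5.0 signals of the 24 chemokines present in either line with DMSO, on a log axis, for 3T3-L1 (purple) and C3H/10T1/2 (green). Dots are the medians and lines run from the lowest to the highest array over all 6 times (17 arrays in 3T3-L1, 18 in C3H/10T1/2), and the dashed line is the presence level of 19.9. Signals cannot be compared between genes, whose probes differ, and only with care between the lines. Over all tested probe sets the median log2 difference between the lines was 0.325 in these signals and 0.071 after quantile normalization. Ccl9 arrays of 3T3-L1 all lie below those of C3H/10T1/2, and Ccl8 arrays of 3T3-L1 all lie above them.

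Promoter windows of 300 bases, from 250 bases before to 50 after the transcription start in RefSeq (mouse build GRCm38.p6), matched 20 of the 30 genes. They were searched on both strands for 3 motifs: the NF-kappaB site (kappaB), the core of the interferon-stimulated response element (ISRE), GAAANNGAAA, and the direct repeat bound by PPARγ with RXR (DR1), AGGTCANAGGTCA. A kappaB match lay in 5 of the 20 windows (25.0%), those of Ccl9, Ccl20, Cxcl1, Cxcl2 and Cxcl10, against 4.35% of 27025 mouse promoters. An ISRE core lay in 2 of them (10.0%), Cxcl10 and Cxcl14, against 3.49% of all promoters, and DR1 in 0 of them, against 0.0444%. These counts describe letters in a window and not binding, and windows of Ccl2, Ccl4, Ccl5, Ccl7, Ccl11, Ccl24, Cxcl5, Cxcl11, Cxcl16 and Cxcl17 were not used here.

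The bases before the start are shown for 4 chemokines whose signals fell with RSG in at least 1 line: Ccl9 (chr11:83578637-83578886, minus strand), Cxcl1 (chr5:90890995-90891244, plus strand), Cxcl10 (chr5:92348890-92349139, minus strand) and Cxcl9 (chr5:92328080-92328329, minus strand). Each run is 250 bases, 5′ to 3′, and ends just before the start site. Capitals mark kappaB matches in Ccl9 and Cxcl1, and in Cxcl10 first the ISRE core, 213 bases before the start, and then kappaB matches at 159 and 103 bases. The kappaB match of Ccl9 begins 35 bases before the start, and those of Cxcl1, at 71 and 70 bases, overlap. The Cxcl9 window held no match to any of the motifs. Neither did the windows of Ccl25, Ccl27a and Cxcl12. Those genes were also called lower with RSG in at least 1 line, and their bases are not shown.
Ccl9: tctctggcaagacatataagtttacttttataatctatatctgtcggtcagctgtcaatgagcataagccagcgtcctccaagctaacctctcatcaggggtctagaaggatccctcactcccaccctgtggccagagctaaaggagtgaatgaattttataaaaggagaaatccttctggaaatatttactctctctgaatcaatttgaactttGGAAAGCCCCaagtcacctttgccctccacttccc
Cxcl1: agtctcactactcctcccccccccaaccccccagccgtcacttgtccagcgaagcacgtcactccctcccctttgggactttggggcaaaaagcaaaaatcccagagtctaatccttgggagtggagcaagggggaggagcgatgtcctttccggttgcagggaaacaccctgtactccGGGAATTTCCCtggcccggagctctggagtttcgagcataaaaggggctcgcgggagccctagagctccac
Cxcl10: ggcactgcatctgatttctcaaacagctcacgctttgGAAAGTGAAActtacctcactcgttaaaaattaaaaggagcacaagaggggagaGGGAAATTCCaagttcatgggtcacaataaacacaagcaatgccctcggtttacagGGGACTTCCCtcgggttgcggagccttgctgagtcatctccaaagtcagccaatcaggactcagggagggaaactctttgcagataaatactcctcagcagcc
Cxcl9: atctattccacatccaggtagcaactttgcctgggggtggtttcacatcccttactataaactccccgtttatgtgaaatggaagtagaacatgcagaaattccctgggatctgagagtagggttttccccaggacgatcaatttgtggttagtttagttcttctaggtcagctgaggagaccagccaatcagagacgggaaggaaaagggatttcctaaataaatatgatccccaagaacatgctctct

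The first question was which chemokines differed between RSG and DMSO at each time. Between 1 and 7 hrs, limma called none of the tested chemokine probe sets in either line at an adjusted p under 0.05. The share of all tested probe sets called (in either direction) was 0.0666%, 0.172%, 0.716% and 2.04% of 3T3-L1 probe sets at 1, 2, 4 and 7 hrs, with 0.0434%, 0.229%, 0.763% and 2.85% of those of C3H/10T1/2. At an unadjusted p under 0.05, 1, 2, 1 and 3 chemokine probe sets were higher and 0, 0, 1 and 1 lower in 3T3-L1, and in C3H/10T1/2 none was at 1, 2 or 4 hrs and 1 was lower at 7 hrs. The methods' test, an analysis of variance with its own unadjusted p under 0.05 and a 1.2-fold difference, gave 2, 3, 2 and 3 higher and 0, 0, 1 and 0 lower in 3T3-L1, and the same counts as the unadjusted p in C3H/10T1/2.

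Later, at 24 and 48 hrs, every chemokine call was a fall with RSG. In 3T3-L1 at 24 hrs, 6 of 27 probe sets fell (22.2%), those of Ccl2, Ccl7, Cxcl1, Cxcl5, Cxcl10 and Cxcl12, against 6.97% of the 18028 tested. At 48 hrs 5 fell (18.5%), those of Ccl2, Ccl9, Ccl27a, Cxcl10 and Cxcl12, against 8.09%. In C3H/10T1/2 at 24 hrs, 4 of 21 probe sets fell (19.0%), 2 of Ccl9 and those of Ccl2 and Cxcl9, against 4.07% of the 16123 tested, and at 48 hrs 2 fell (9.52%), those of Ccl9 and Cxcl9, against 2.62%. Cxcl9 entered these tests through DMSO groups alone, which favours a fall with RSG, so both shares include a member picked by the filter. The median log2 difference of the tested chemokine probe sets was -0.21 and -0.18 at 24 and 48 hrs in 3T3-L1, where all probe sets had -0.012 and -0.032, and -0.76 and -0.47 in C3H/10T1/2, where all had -0.07 and -0.012. Because samples are bulk RNA, less RNA per cell and fewer cells with the RNA cannot be told apart.

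The replicate numbers of C3H/10T1/2 were taken to pair its samples, and with the number as a block the calls were 7 lower at 24 hrs and 5 lower at 48 hrs, where 7.27% and 4.87% of all tested probe sets were called lower. Both counts again include Cxcl9. The additions were Ccl7 and both probe sets of Cxcl12 at 24 hrs, and Ccl2, Ccl7 and a second probe set of Ccl9 at 48 hrs. In 3T3-L1 the deviations of same-numbered arrays correlated at 0.019 to 0.261, over 0.1 in 14 of 17 pairs. The block there gave 8 lower at 24 hrs and 7 at 48 hrs, where 9.33% and 10.2% of all tested were called lower, adding Ccl27a (adjusted p = 0.0488) and a probe set of Cxcl12 at 24 hrs, and Ccl7 and the other probe set of Cxcl12 at 48 hrs. All RSG arrays lay below all DMSO arrays for 10 probe sets of 3T3-L1 at 24 hrs and 9 at 48 hrs (15.6% and 14.4% of all tested), and for 9 at each time in C3H/10T1/2 (14.6% and 10.5%). These counts include Ccl22 at 24 hrs and Ccl25 at 48 hrs in 3T3-L1, and in C3H/10T1/2 Cxcl9 at both times and Ccl6 at 48 hrs. Those members passed the filter through DMSO groups alone, which favours RSG arrays lying below DMSO arrays.

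**Figure D2:**
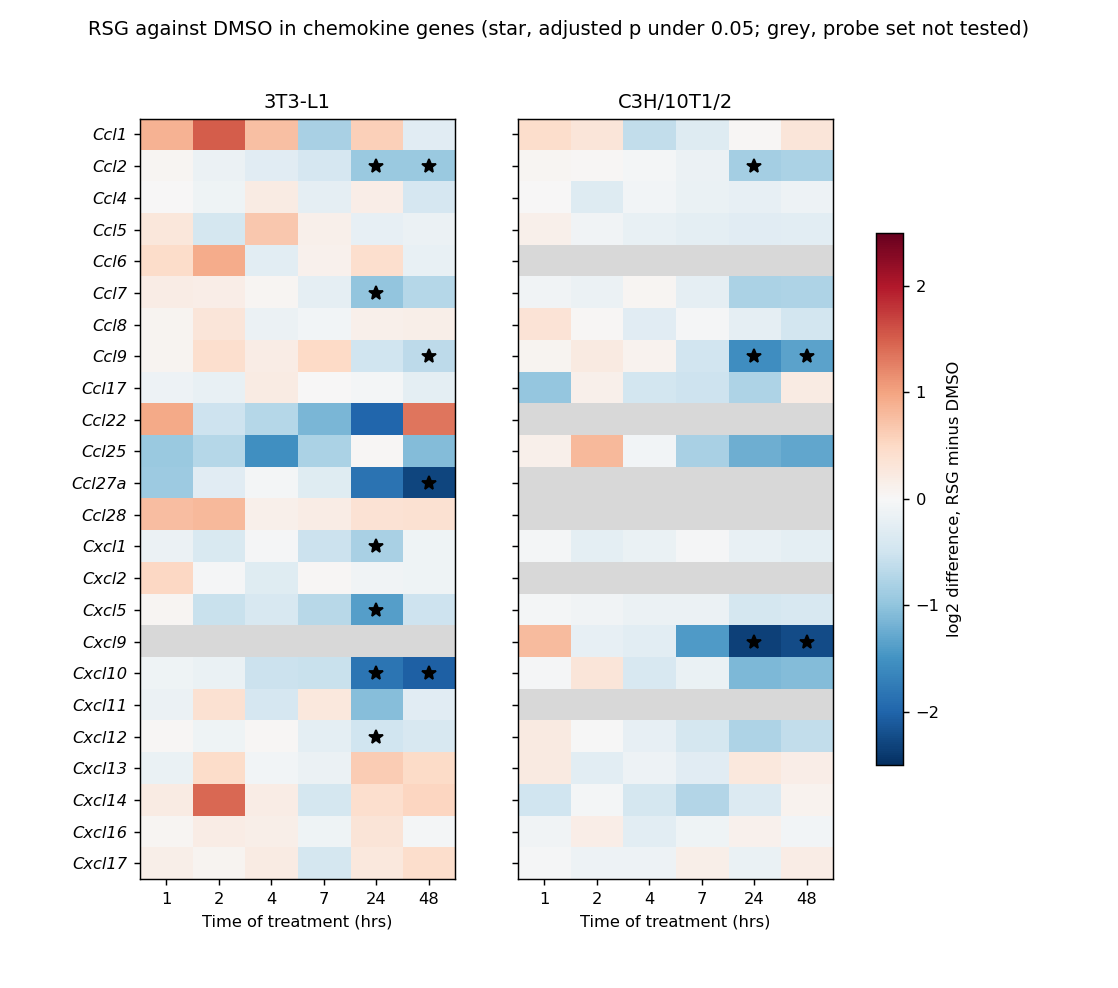
Log2 difference of RSG minus DMSO (colour, blue lower and red higher with RSG) for the 24 present chemokines at 6 times (columns) in 3T3-L1 (left) and C3H/10T1/2 (right), 1 probe set per gene. Stars mark an adjusted p under 0.05, and grey cells were not tested because that probe set stayed below the presence level. Stars stand only in the 24 and 48 hr columns, and all are on blue cells.

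Ccl2 (probe set 1420380_at), the main monocyte-recruiting chemokine, fell late in both lines. In 3T3-L1 at 24 hrs its signals were 345.3, 304.3 and 390.2 with RSG, against 596.5, 617.0 and 759.4 with DMSO, averaging 346.6 ± 43.0 and 657.6 ± 88.7 (SD, n = 3 each). At 48 hrs they were 398.2, 246.6 and 300.9 with RSG, against 853.6, 478.0 and 498.8 with DMSO. RSG and DMSO arrays did not overlap at either time, and DMSO replicate 1 stood high at 48 hrs. The log2 differences were -0.92 (SE 0.29, limma adjusted p = 0.0337) and -0.93 (SE 0.29, adjusted p = 0.0281), both 1.90-fold lower. The 24-hr call was lost without RSG replicate 1 or 2 or DMSO replicate 2 or 3 (adjusted p 0.0685 to 0.144), and the 48-hr call without DMSO replicate 1 or RSG replicate 2 or 3 (0.0715 to 0.209).

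The Ccl2 signals of C3H/10T1/2 at 24 hrs were 896.7, 978.8 and 1136.7 with RSG, against 1653.2, 1799.9 and 1989.8 with DMSO. At 48 hrs they were 641.9, 786.9 and 828.1 with RSG, against 1174.9, 1342.2 and 1354.6 with DMSO. The groups were fully apart at both times. The 24-hr difference was -0.86 (SE 0.26, adjusted p = 0.0389, 1.81-fold lower), and the 48-hr difference of -0.78 missed the threshold (adjusted p = 0.0765) but passed it with the replicate block (0.0203). The 24-hr call was lost on leaving out any array other than RSG replicate 3 (adjusted p 0.0639 to 0.133), and the block put it at 0.00892. The groups overlapped at 4 hrs, with 1889.1, 1929.9 and 1367.3 with RSG, against 1621.5, 2019.7 and 1676.5 with DMSO. At 7 hrs they did not overlap, with 1463.0, 1511.7 and 1414.6 with RSG, against 1676.7, 1539.6 and 1624.0 with DMSO, but the difference of -0.14 was not called (adjusted p = 0.872).

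Ccl7 (1421228_at), another Ccr2 ligand encoded like Ccl2 on chromosome 11, had 57.6, 46.8 and 75.8 with RSG at 24 hrs in 3T3-L1, against 103.7, 127.7 and 120.6 with DMSO. No arrays overlapped, and the signal fell by 0.99 on the log2 scale (SE 0.29, adjusted p = 0.0196, 1.99-fold lower). This call was lost without RSG replicate 1 or 2 or DMSO replicate 2 or 3 (adjusted p 0.0639 to 0.104). At 48 hrs the signals were 90.9, 82.0 and 87.7 with RSG, against 196.2, 101.5 and 144.9 with DMSO, a difference of -0.71 that missed the threshold (adjusted p = 0.0968) and passed it with the replicate block (0.0308).

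Ccl7 of C3H/10T1/2 had 229.1, 222.1 and 201.5 with RSG at 24 hrs, against 330.5, 396.1 and 410.1 with DMSO, and 192.0, 223.8 and 150.4 against 341.2, 323.0 and 289.1 at 48 hrs. The groups did not overlap at either time. The differences of -0.80 and -0.77 missed the threshold (adjusted p = 0.139 and 0.194) and passed it with the replicate block (0.0179 and 0.0275).

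Ccl8 (1419684_at), a ligand of Ccr8 in the mouse, also encoded on chromosome 11, was not called with RSG in either line. At 24 hrs in C3H/10T1/2 it had 90.1, 77.1 and 89.9 with RSG, against 103.0, 105.3 and 92.4 with DMSO, with no overlap and a difference of -0.23 (adjusted p = 0.51), and at 4 hrs 70.9, 67.0 and 77.7 with RSG, against 92.9, 92.5 and 77.8 with DMSO, also apart (-0.29, adjusted p = 0.745). At 48 hrs in C3H/10T1/2 it had 77.4, 51.1 and 62.4 with RSG, against 70.2, 88.9 and 104.1 with DMSO, which overlap, with a difference of -0.47 (adjusted p = 0.116). In 3T3-L1 at 48 hrs it had 167.7, 174.7 and 144.9 with RSG, against 208.6, 129.9 and 113.6 with DMSO.

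Ccl9, a mouse chemokine that acts on Ccr1 and whose promoter run is shown above, fell late in C3H/10T1/2. On probe set 1417936_at the signals at 24 hrs were 161.9, 190.5 and 300.1 with RSG, against 459.2, 697.5 and 737.8 with DMSO. At 48 hrs they were 63.2, 121.1 and 143.1 with RSG, against 182.2, 265.5 and 371.0 with DMSO. No RSG array reached the lowest DMSO array at either time, and replicate 3 was high in both treatments at 24 hrs and earlier. The log2 differences were -1.56 (SE 0.36, adjusted p = 0.00551, 2.95-fold lower) and -1.35 (SE 0.36, adjusted p = 0.0214, 2.54-fold lower), with 1.77e-08 and 2.3e-07 under the replicate block. The 24-hr call held without any 1 of its 6 arrays, and the 48-hr call was lost without RSG replicate 1 or DMSO replicate 2 or 3 (adjusted p 0.0628 to 0.17).

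The second Ccl9 probe set, 1448898_at, read 125.7, 131.2 and 146.3 with RSG at 24 hrs in C3H/10T1/2, against 318.9, 454.1 and 601.6 with DMSO. It fell by 1.73 on the log2 scale (SE 0.41, adjusted p = 0.0069, 3.31-fold lower), a call lost only without DMSO replicate 3 (adjusted p = 0.0511). At 48 hrs it read 47.5, 74.4 and 101.5 with RSG, against 107.3, 164.2 and 235.5 with DMSO, a difference of -1.18 with an adjusted p of 0.0943, and of 2.73e-05 with the replicate block. The probe sets thus ran the same way at both times.

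In 3T3-L1 Ccl9 was called at 48 hrs only, and on 1 probe set only. The second, 1448898_at, was not called there, with or without the replicate block. Probe set 1417936_at had 44.2, 39.9 and 49.5 with RSG, against 95.2, 59.4 and 59.2 with DMSO, which did not overlap, and fell by 0.65 (SE 0.21, adjusted p = 0.0345, 1.57-fold lower). DMSO replicate 1 stood above the other DMSO arrays, and without it the difference was -0.42 (adjusted p = 0.271), while leaving out RSG replicate 1 or 2 gave adjusted p of 0.0824 and 0.129. Earlier the arrays lay the other way: at 2 hrs they read 72.3, 80.8 and 70.9 with RSG, against 59.0 and 52.3 with DMSO, and at 7 hrs 65.8, 58.5 and 53.5 with RSG, against 41.0, 36.3 and 49.5 with DMSO. Neither early difference passed the threshold.

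Among the Cxcr2 ligands, Cxcl5 (1419728_at) fell in 3T3-L1 at 24 hrs. Its signals were 147.7, 193.3 and 178.9 with RSG, against 396.4, 440.0 and 510.3 with DMSO, with no overlap, a difference of -1.37 (SE 0.35, adjusted p = 0.00686, 2.59-fold lower). The call held without any 1 of the 6 arrays. At 48 hrs they were 302.0, 250.8 and 353.3 with RSG, against 451.5, 410.3 and 430.2 with DMSO, still apart but not called (-0.52, adjusted p = 0.377). At 24 hrs in C3H/10T1/2, Cxcl5 had 910.9, 995.8 and 594.6 with RSG, against 1189.8, 1106.5 and 1006.0 with DMSO, and was not called at any time there.

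Cxcl1 (1419209_at), which lies with Cxcl5 on chromosome 5, had 192.5, 118.8 and 163.6 with RSG at 24 hrs in 3T3-L1, against 286.5, 257.4 and 275.0 with DMSO. These arrays did not overlap, and the signal fell by 0.81 (SE 0.25, adjusted p = 0.0286, 1.76-fold lower). The call was lost on leaving out any array other than RSG replicate 1 (adjusted p 0.0525 to 0.165). At 48 hrs the groups overlapped, with 298.1, 167.8 and 329.0 with RSG, against 333.8, 213.8 and 288.0 with DMSO, and in C3H/10T1/2 at 24 hrs they overlapped as well, with 1839.4, 1596.3 and 1025.1 against 2104.8, 1612.7 and 1320.4.

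Of the Cxcr3 ligands, Cxcl10 (1418930_at) was called in 3T3-L1 and Cxcl9 (1418652_at) in C3H/10T1/2. Cxcl10 in 3T3-L1 at 24 hrs had 4.2, 12.8 and 19.9 with RSG, against 31.9, 37.3 and 40.1 with DMSO. At 48 hrs it had 15.5, 3.1 and 11.5 with RSG, all under the presence level, against 68.3, 26.1 and 21.4 with DMSO. The groups were apart at both times. The measured differences were -1.83 (SE 0.49, adjusted p = 0.0109) and -2.04 (SE 0.49, adjusted p = 0.00356). A signal below presence is no level, so no fold is given at 24 hrs, where 2 of the 3 RSG arrays were under it, and the 48-hr fold is only bounded, at least 1.69-fold lower with RSG.

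Single arrays carried part of the Cxcl10 values. Without RSG replicate 1 the 24-hr difference was -1.18 (adjusted p = 0.149), and the 48-hr difference was -1.53 (0.0523) on leaving out DMSO replicate 1 and -1.33 on leaving out RSG replicate 2 (0.0617). With signals under the presence level raised to it, the differences were -0.87 and -0.76 and neither was called (adjusted p = 0.0586 and 0.0961). In C3H/10T1/2, where Cxcl10 was near the presence level, it had 9.2, 13.6 and 15.0 with RSG at 24 hrs, against 20.2, 34.9 and 27.7 with DMSO, a difference of -1.13 that was not called (adjusted p = 0.151).

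Cxcl9 in C3H/10T1/2 was below the presence level on every RSG array at 24 and 48 hrs. It had 7.2, 9.3 and 4.5 with RSG at 24 hrs, against 39.3, 31.9 and 30.6 with DMSO, and 7.8, 14.0 and 5.0 at 48 hrs, against 44.5, 43.1 and 29.6. Every DMSO array lay above every RSG array. Cxcl9 was thus at least 1.70-fold lower with RSG at 24 hrs (adjusted p = 0.0211) and at least 1.93-fold lower at 48 hrs (adjusted p = 0.0339), with measured log2 differences of -2.33 and -2.23 (SE 0.64 each). The calls were lost on leaving out any array other than RSG replicate 2 (adjusted p 0.0515 to 0.0913 at 24 hrs and 0.0518 to 0.16 at 48 hrs), and both passed with the replicate block (0.00638 and 0.0106). With signals raised to the presence level, the differences were -0.76 (adjusted p = 0.000419) and -0.95 (2.14e-05). Every RSG array of Cxcl9 in this line was under that level (highest 18.2), so raising made them all equal. That takes out the spread of the RSG arrays, so these smaller p-values add no support. In 3T3-L1 Cxcl9 was not present.

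Cxcl12, the Cxcr4 ligand that stromal cells make throughout the body, had clear signals in both lines on 2 probe sets. On 1448823_at in 3T3-L1 the arrays at 24 hrs read 1739.0, 1674.4 and 1910.7 with RSG, against 2567.7, 2517.4 and 2438.1 with DMSO. At 48 hrs they read 2162.5, 1698.8 and 1855.8 with RSG, against 2881.7, 2420.1 and 2210.0 with DMSO. The groups stayed apart at both times, by a smaller step than for the chemokines above. The 24-hr difference was -0.50 (SE 0.14, adjusted p = 0.0184, 1.42-fold lower), and the 48-hr one -0.39 (adjusted p = 0.0652, and 0.0285 with the replicate block). The call at 24 hrs was lost without RSG or DMSO replicate 1 or 2 (adjusted p 0.0523 to 0.0701).

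Probe set 1417574_at of Cxcl12 passed at the other time. In 3T3-L1 at 48 hrs it read 484.0, 376.9 and 434.8 with RSG, against 730.1, 529.2 and 727.3 with DMSO, a difference of -0.61 (SE 0.20, adjusted p = 0.0335, 1.52-fold lower), lost without RSG replicate 2 or 3 or DMSO replicate 1 or 3 (adjusted p 0.0696 to 0.147). At 24 hrs its difference was -0.51 (adjusted p = 0.0965, and 0.0157 with the replicate block). On C3H/10T1/2 arrays at 24 hrs, replicate 3 was low in both treatments on 1448823_at, with 902.9, 1019.7 and 444.8 with RSG, against 1471.3, 1435.6 and 961.1 with DMSO, which overlap only through that DMSO array. The differences of -0.88 on 1417574_at and -0.77 on 1448823_at were not called (adjusted p = 0.312 and 0.489) and passed with the replicate block (0.0215 and 0.0465).

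**Figure D3:**
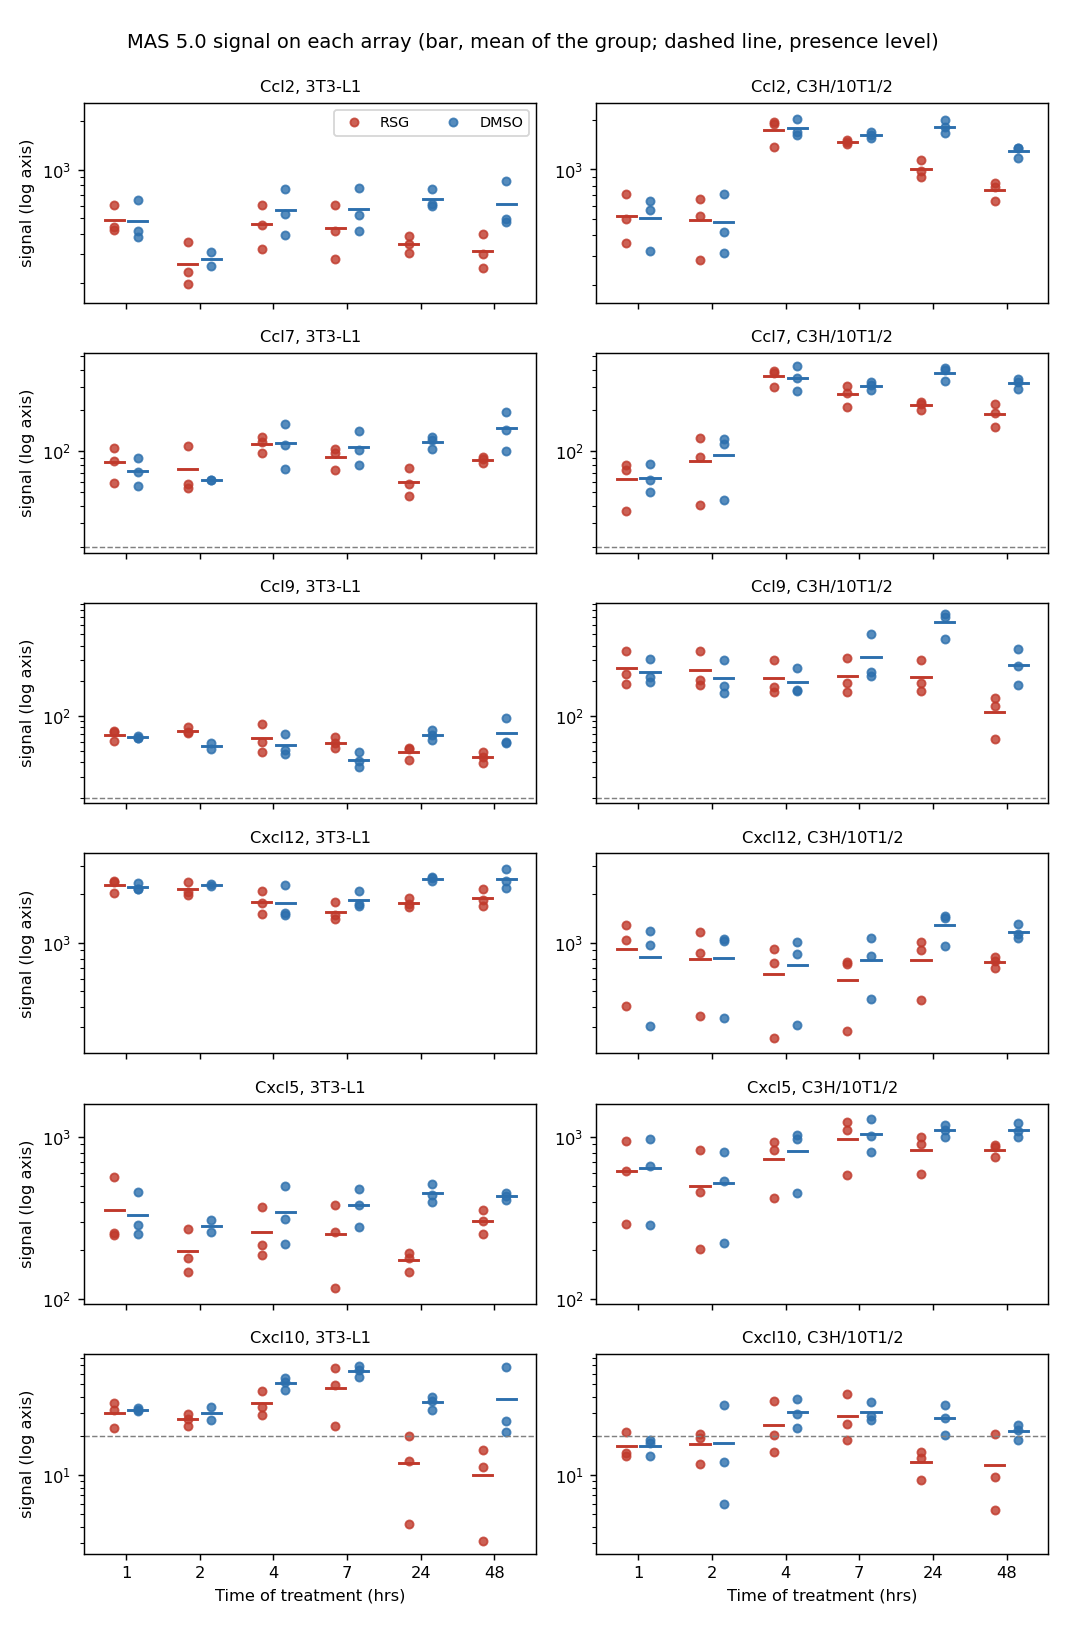
MAS 5.0 signal on each array (points, log axes) of 6 chemokines with RSG (red, left of each pair) and DMSO (blue) at 6 times, in 3T3-L1 (left column) and C3H/10T1/2 (right column). Bars are group means of 3 arrays (2 for DMSO at 2 hrs in 3T3-L1), and the dashed line, where it is in range, is the presence level of 19.9. RSG points lie below DMSO points at 24 hrs for all 6 genes in 3T3-L1, and in C3H/10T1/2 for all but Cxcl12, where RSG replicate 2 lies above DMSO replicate 3.

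Ccl27a and Ccl25, ligands of Ccr10 and Ccr9 best known from skin and gut, gave calls close to the presence level in 3T3-L1. Ccl27a (1434962_x_at) had 4.4, 1.6 and 12 with RSG at 48 hrs, against 14.0, 22.6 and 31.2 with DMSO. The groups did not overlap, every RSG array was under the presence level, and the signal was at least 1.08-fold lower with RSG (measured difference -2.29, SE 0.67, adjusted p = 0.0179). The call was lost without RSG replicate 2 (-1.56, adjusted p = 0.166) or DMSO replicate 3 (-2.02, 0.0762), and with signals raised to the presence level (-0.28, 0.428). Near-identical Ccl27b copies exist and this probe set can cross-hybridise, so its source is uncertain. A probe set annotated to both (1419188_s_at) had a median of 31.2 and was called in no RSG or time comparison (smallest adjusted p = 0.201).

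Ccl25 (1418777_at) was called only over the average of the 6 times, with a difference of -0.84 (adjusted p = 0.0307). Its signals scattered around presence, with 14.0, 6.5 and 4.6 with RSG at 4 hrs, against 10.6, 25.6 and 37.0 with DMSO, and 5.9, 7.7 and 4.5 against 7.4, 4.9 and 5.4 at 24 hrs. The arrays overlap at most times. With signals raised to the presence level the averaged difference was -0.17 (adjusted p = 0.22). The average was also lost without any 1 of 7 single arrays (RSG replicates 1 and 2 at 1 hr and 3 at 4 hrs, and DMSO replicates 1 at 1 hr, 2 at 2 hrs, 3 at 4 hrs and 1 at 7 hrs), with adjusted p of 0.0512 to 0.0592.

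Averaged over the 6 times, 8 of 27 probe sets were lower with RSG in 3T3-L1 (29.6%), against 10.2% of all tested. They were those of Ccl2 (-0.44), Ccl25, Ccl27a (-0.95), Cxcl1 (-0.33), Cxcl5 (-0.59), Cxcl10 (-0.87) and both of Cxcl12 (-0.30 and -0.19), with adjusted p of 0.00233 to 0.0307. Of the C3H/10T1/2 probe sets, 3 of 21 were lower (14.3%), both probe sets of Ccl9 (-0.50 and -0.54) and Cxcl9 (-0.94), against 7.93%. With the replicate block there were 7, where 11.3% of all tested were called lower, the additions being Ccl2, Ccl7 and both probe sets of Cxcl12 (adjusted p 0.00517 to 0.0405). Cxcl1 was lost without DMSO replicate 3 at 2 hrs (0.0572), and the second Ccl9 probe set without replicate 3 of DMSO at 1, 2, 4, 7 or 48 hrs or replicate 1 of RSG at 1 or 7 hrs (0.0508 to 0.0536). With signals raised to the presence level the averages were -0.16 for Ccl27a, no longer called (0.197), -0.50 for Cxcl10 and -0.36 for Cxcl9, both still called. For Cxcl9, raising made all RSG arrays of C3H/10T1/2 equal, so its call there adds no support. Ccl25 in 3T3-L1 and Cxcl9 in C3H/10T1/2, counted above, passed the filter through DMSO groups alone, which favours a lower call with RSG.

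Whether an effect was late was tested as the mean difference at 24 and 48 hrs minus that at 1 and 2 hrs. It was more negative late for Ccl7 (-1.03, adjusted p = 0.0214), Ccl9 (-0.82, 0.0128, on 1417936_at only) and Cxcl10 (-1.80, 0.0183) in 3T3-L1, which is 11.1% of the tested chemokine probe sets, against 5.13% of all. It was so for both probe sets of Ccl9 (-1.61 and -1.56, adjusted p = 0.00627 and 0.0201) and for Cxcl9 (-2.58, 0.014) of C3H/10T1/2, 14.3% against 2.44%. Cxcl9 had passed the filter there through DMSO groups alone. The replicate block added Ccl2 (-0.86, adjusted p = 0.0112) and Ccl8 (-0.53, 0.0467), where 4.73% of all tested were called lower. In 3T3-L1 it added Ccl2 (-0.92, adjusted p = 0.00805), Cxcl5 (-0.78, 0.0207) and both probe sets of Cxcl12 (-0.50 and -0.40, 0.0263 and 0.0406), where 7.03% of all tested were called lower. The Cxcl10 value of 3T3-L1 was lost without DMSO replicate 2 at 2 hrs (adjusted p = 0.0522) and with signals raised to the presence level (-0.68, 0.202).

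The other 12 present chemokines, Ccl1, Ccl4, Ccl6, Ccl17, Ccl22, Ccl28, Cxcl2, Cxcl11, Cxcl13, Cxcl14, Cxcl16 and Cxcl17, were called in no RSG comparison and in none over time with DMSO. Several had steady signals well over presence: Ccl4 ranged over 60.9 to 151.9 on 3T3-L1 arrays and 27.2 to 65.1 on C3H/10T1/2 arrays, Cxcl13, the B cell attractant, over 61.4 to 153.6 and 26.7 to 99.2, Cxcl16, a transmembrane Cxcr6 ligand, over 44.7 to 99.9 and 23.6 to 75.3, and Cxcl17 over 66.4 to 158.2 and 38.3 to 94.3. Others crossed the presence level from array to array, such as Ccl1 (6.3 to 46.2 and 2.9 to 29.5) and Cxcl14 (5.5 to 51.5 and 9.2 to 57.4), and Ccl17 did so in C3H/10T1/2 alone, with 22.4 to 55.0 on 3T3-L1 arrays and 3.2 to 27.6 on C3H/10T1/2 arrays. In 3T3-L1, Ccl22 spanned 1.2 to 33.6, Ccl28 6.8 to 24.5, Cxcl2 9.2 to 30.1 and Cxcl11 5.8 to 32.3. Cxcl13 was the 1 chemokine whose RSG arrays all lay above its DMSO arrays at 24 hrs in 3T3-L1 (12.6% of all tested did), with a difference of 0.64 that was not called (adjusted p = 0.12) but passed in a fit of only the groups compared (0.0416). Ccl28 near the presence level was higher with RSG averaged over the 6 times in 3T3-L1 by 0.44, which was not called (adjusted p = 0.0577) but passed with no trend (0.0108), no filter (0.0412) or quantile normalization (0.0322). It had passed the filter through RSG groups alone, which favours a higher value with RSG.

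No chemokine probe set was called for a difference in RSG effect between the lines at any of the 6 times (0 of 28 tested in either line), where 0%, 0%, 0%, 0.0164%, 0.257% and 0.848% of all tested were. At an unadjusted p under 0.05, limma gave 1, 1, 0 and 2 of either direction at 1, 2, 4 and 7 hrs, and 3 and 2 at 24 and 48 hrs. At 24 hrs the effect in 3T3-L1 minus that in C3H/10T1/2 was -0.07 (SE 0.41) for Ccl2, -0.19 (SE 0.44) for Ccl7, -0.94 (SE 0.61) for Cxcl5, -0.70 (SE 0.69) for Cxcl10 and 0.27 (SE 0.60) for Cxcl12, all with wide errors. For Ccl9 on 1417936_at it was 1.07 (SE 0.43, adjusted p = 0.443), a smaller fall in 3T3-L1, which passed with the replicate number as a block within each line (adjusted p = 0.0103, with 0.897% of all tested called in that fit). The second Ccl9 probe set, 1448898_at, was called neither without the block nor with it. A call in 1 line and none in the other is therefore not shown to be a difference, apart from 1417936_at of Ccl9 under the block.

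The second question was how chemokines moved over time with DMSO alone, after RSG had been washed out. All these comparisons share the 1-hr DMSO arrays, and the DMSO arrays of a time are also those that RSG was set against. In C3H/10T1/2, 0, 2, 2, 5 and 3 of 21 probe sets were higher than at 1 hr at 2, 4, 7, 24 and 48 hrs (0%, 9.52%, 9.52%, 23.8% and 14.3%), against 0.341%, 3.29%, 5.67%, 6.25% and 5.09% of all tested, and none was called lower. At 2 hrs none had an unadjusted p under 0.05, and the methods' test called none. Cxcl9, counted at 24 and 48 hrs, passed the filter through DMSO groups alone.

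Ccl2 in C3H/10T1/2 stepped up between 2 and 4 hrs with DMSO. Its arrays read 569.6, 642.2 and 323.4 at 1 hr and 419.3, 709.0 and 312.2 at 2 hrs. After 4 hrs they read 1621.5, 2019.7 and 1676.5, after 7 hrs 1676.7, 1539.6 and 1624.0, after 24 hrs 1653.2, 1799.9 and 1989.8, and after 48 hrs 1174.9, 1342.2 and 1354.6. Every array from 4 hrs on lay above every array at 1 and 2 hrs. Against 1 hr the log2 differences were 1.85, 1.72, 1.88 and 1.39 at 4, 7, 24 and 48 hrs, or 3.59, 3.29, 3.69 and 2.62-fold higher, with adjusted p of 1.79e-05, 3.51e-05, 5.23e-06 and 0.000382. Each call held without any 1 of its arrays.

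Ccl7 did the same, with 62.2, 80.5 and 50.3 at 1 hr and 113.2, 124.0 and 43.7 at 2 hrs. Its arrays read 344.2, 423.3 and 278.2 after 4 hrs, 305.5, 322.4 and 282.8 after 7 hrs, 330.5, 396.1 and 410.1 after 24 hrs, and 341.2, 323.0 and 289.1 after 48 hrs. No array from 4 hrs on overlapped those at 1 or 2 hrs. It was 5.44, 4.80, 5.97 and 5.02-fold higher at 4, 7, 24 and 48 hrs than at 1 hr, with adjusted p of 6.4e-06, 1.26e-05, 8.27e-07 and 4.51e-06, and all 4 calls held without any 1 array.

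Ccl9 and Cxcl9 were higher later in C3H/10T1/2. Ccl9 (1417936_at) had 459.2, 697.5 and 737.8 at 24 hrs with DMSO, against 216.1, 197.0 and 304.5 at 1 hr, 2.63-fold higher (log2 1.40, adjusted p = 0.00849), and 182.2, 265.5 and 371.0 at 48 hrs, which overlap the 1-hr arrays. Its second probe set was 2.86-fold higher at 24 hrs (adjusted p = 0.0121, lost without DMSO replicate 2 at 1 hr, 0.0741, or replicate 3 at 24 hrs, 0.0754). Cxcl9 was under the presence level at 1 hr, with 13.4, 11.4 and 2.5. With the later DMSO arrays given above, it was at least 1.70-fold higher at 24 hrs and at least 1.93-fold higher at 48 hrs (adjusted p = 0.0198 and 0.0125). Without the low array at 1 hr, replicate 3, its measured differences of 2.22 and 2.41 were 1.45 and 1.64 and were not called (adjusted p = 0.184 and 0.139), and the 24-hr call was also lost without replicate 1 or 2 at 24 hrs (0.0668 and 0.0525).

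With the replicate block, 25 comparisons were called over the 5 later times in C3H/10T1/2, as against 12 without it, and all 12 were among the 25. By time, 0, 3, 5, 10 and 6 probe sets were called higher, against 0.781%, 5.72%, 8.69%, 9.38% and 7.71% of all tested, and 1 was called lower, at 48 hrs, where 7.55% of all tested were. Cxcl1 was added at 4, 7, 24 and 48 hrs, with arrays of 2337.5, 1711.5 and 1826.2 at 4 hrs, against 1176.4, 1046.9 and 402.3 at 1 hr (log2 1.29, adjusted p = 0.0525 without the block and 6.77e-05 with it). Cxcl5 was added at 7, 24 and 48 hrs (0.84 to 0.95), Cxcl12 at 24 hrs on both probe sets (1.07 and 0.84) and at 48 hrs on 1, Cxcl9 at 7 hrs (1.71) and Ccl8 at 24 hrs (0.50). Replicate 3 was lower than replicates 1 and 2 at 1 hr for Cxcl1, Cxcl5, Cxcl12 and Ccl5 and higher for Ccl9, which is the spread that the block takes out.

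Ccl5, a chemokine that attracts T cells and monocytes, ran the other way. Its C3H/10T1/2 arrays had 106.0, 87.5 and 75.5 at 48 hrs with DMSO, against 375.1, 472.4 and 111.1 at 1 hr, with no overlap and a difference of -1.60 that was called only with the block (adjusted p = 0.0596 without it, 0.00302 with it). In 3T3-L1 it had 49.6, 16.5 and 49.1 at 48 hrs, against 84.1, 62.9 and 85.7 at 1 hr, 2.24-fold lower (log2 -1.17, SE 0.31, adjusted p = 0.0395). Without the low array, replicate 2 at 48 hrs, the difference in 3T3-L1 was -0.64 (adjusted p = 0.271), and the call was also lost without any 1 of the 1-hr arrays (0.06 to 0.121).

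Ccl8 was the other chemokine called over time in 3T3-L1 without the block, with 208.6, 129.9 and 113.6 at 48 hrs with DMSO, against 302.0, 236.5 and 336.1 at 1 hr. The groups did not overlap, and it was 1.98-fold lower (log2 -0.99, SE 0.25, adjusted p = 0.0302). The call was lost without replicate 1 or 3 at 1 hr or replicate 2 or 3 at 48 hrs (adjusted p 0.0909 to 0.131). These 2 of 27 probe sets are 7.41%, against 1.39% of all tested called lower at 48 hrs. At 2, 4, 7 and 24 hrs none was called in 3T3-L1 (0.0166%, 0.0721%, 0.0832% and 0.949% of all tested were, in either direction), while 3, 4, 5 and 2 had an unadjusted p under 0.05 and the methods' test gave 2, 5, 5 and 3.

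Ccl2 and Ccl7 were not called over time in 3T3-L1. Ccl2 had 416.3, 383.1 and 646.9 at 1 hr and 254.1 and 308.6 at 2 hrs. After 4 hrs it had 396.2, 534.9 and 755.9, after 7 hrs 416.6, 525.9 and 776.7, after 24 hrs 596.5, 617.0 and 759.4, and after 48 hrs 853.6, 478.0 and 498.8. The arrays from 4 hrs on overlap those at 1 hr at every time. Ccl7 had 196.2, 101.5 and 144.9 at 48 hrs, against 70.1, 56.2 and 89.7 at 1 hr, which do not overlap, with a difference of 1.01 that missed the threshold (adjusted p = 0.0595) and passed it with the replicate block (0.00943). At 24 hrs, with 103.7, 127.7 and 120.6, it also lay wholly above 1 hr, and the differences of 0.63, 0.57 and 0.73 at 4, 7 and 24 hrs were not called (adjusted p = 0.794, 0.981 and 0.307), though those at 4 and 24 hrs passed the methods' test. The block also called Cxcl12 (1417574_at) lower at 7 hrs than at 1 hr in 3T3-L1 (-0.73, adjusted p = 0.0174).

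The difference between the lines in change over time was tested in a joint fit, a test chosen after the data had been seen. The change in 3T3-L1 minus that in C3H/10T1/2 was called for Ccl2 at 4 hrs (-1.63, SE 0.41, adjusted p = 0.0343), 7 hrs (-1.48, 0.0378) and 24 hrs (-1.40, 0.0393), for Ccl7 at 4 hrs (-1.81, SE 0.44, adjusted p = 0.0293), 7 hrs (-1.69, 0.0256) and 24 hrs (-1.85, 0.00733), and for Ccl8 at 48 hrs (-1.28, SE 0.31, adjusted p = 0.0102). By time 0, 2, 2, 2 and 1 of 28 were called, at most 7.14%, against 0.093%, 0.613%, 1.88%, 3.09% and 2.58% of all tested in either direction. After quantile normalization, the Ccl8 call alone was kept, and the Ccl2 and Ccl7 differences of -1.34 to -1.57 had adjusted p of 0.0512 to 0.16. Of these 7 calls, 2 were left without replicate 3 of DMSO at 1 hr of either line, while those of Ccl8 and of Ccl7 at 24 hrs held without any 1 of the 12 arrays of their comparison.

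**Figure D4:**
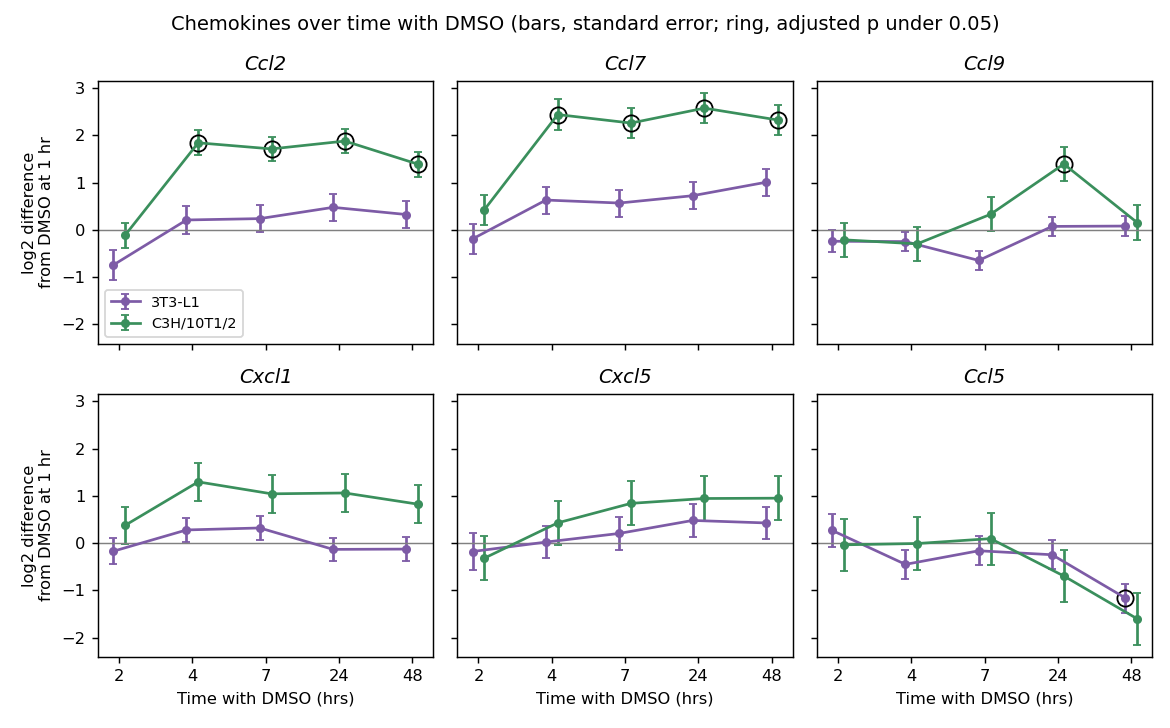
Log2 difference of DMSO at each later time from DMSO at 1 hr (vertical axis) for 6 chemokines in 3T3-L1 (purple) and C3H/10T1/2 (green), with bars of 1 standard error from the limma fit. Black rings mark an adjusted p under 0.05. Ccl2 and Ccl7 of C3H/10T1/2 are ringed at 4, 7, 24 and 48 hrs, Ccl9 of C3H/10T1/2 at 24 hrs, and Ccl5 of 3T3-L1 at 48 hrs.

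Levels with DMSO, averaged over the 6 times, differed between the lines for 24 of 28 probe sets (85.7%), where 77.5% of all tested probe sets did. Of them, 16 were higher and 8 lower in 3T3-L1 than in C3H/10T1/2. The fit took DMSO arrays of different times as independent, although same-numbered arrays may share a differentiation batch, so these p-values may be too small. Cell line and differentiation protocol cannot be told apart. Ccl9 (log2 -2.23, adjusted p = 7.97e-23, and -2.73 on its second probe set), Cxcl1 (-2.14, 2.48e-19), Ccl5 (-1.73), Cxcl9 (-1.37), Cxcl5 (-1.15), Ccl2 (-1.10) and Ccl7 (-1.05) were lower in 3T3-L1. Ccl8 (1.62, adjusted p = 6.84e-23), Cxcl12 (1.36 and 0.57) and Ccl4 (0.99) were among those higher in 3T3-L1. Ccl27a (3.24) was below the presence level on every C3H/10T1/2 array, and Cxcl9 on all but 2 of 35 3T3-L1 arrays, so with signals raised to that level their differences were 0.21 (adjusted p = 0.00154) and -0.36 (1.13e-10). Raising made all or nearly all arrays of the lower line equal, which takes out spread, so these p-values may be too small.

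The median difference between the lines over all tested probe sets was 0.325 in the signals as deposited, each array having been scaled to a common trimmed mean. After quantile normalization that median was 0.071, and 19 chemokine probe sets were called, 8 higher and 11 lower in 3T3-L1 (65.6% of all tested called). The signs of all genes named in the preceding paragraph held. Ccl6, Ccl17, Ccl22, Ccl28, Cxcl2, Cxcl10, Cxcl11 and a second probe set of Cxcl13 were higher in 3T3-L1 as deposited and not called after quantile normalization, when Ccl28 had -0.03 (adjusted p = 0.852). Ccl25 (-0.70), Cxcl14 (-0.72) and the other probe set of Ccl6 (-0.77) were then called lower in 3T3-L1.

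Other genes of the chemokine system and of the pathways that feed it were read from fixed lists. Among chemokine receptors and other chemokines, 21 of 26 genes on the array could be tested in 3T3-L1 cells and only 14 in C3H/10T1/2, and the 1 RSG call at 24 or 48 hrs was Cx3cl1, a membrane-bound chemokine, at 48 hrs in 3T3-L1 (-0.75, adjusted p = 0.00171). Cxcr4, the Cxcl12 receptor, was called lower with DMSO at 7, 24 and 48 hrs than at 1 hr in C3H/10T1/2, but it reached the presence level on only 12 of 36 arrays there (highest 48.8), so the sizes of the falls are uncertain. In the NF-kappaB and Toll-like receptor list of 23 genes, 2 genes fell with RSG at 24 hrs in 3T3-L1 (Ikbkb, -0.60, and Il1r1, -1.60), and at 48 hrs 3 fell (Nfkbie, Nfkbia and Tlr3) and 1, Ikbkg, rose. Of the same list 3 fell at 24 hrs in C3H/10T1/2, the NF-kappaB inhibitor and target Nfkbia (-0.50, adjusted p = 0.0111), the endotoxin receptor Tlr4 (-0.67, 0.0156) and Relb (-0.71, 0.0452), and none at 48 hrs.

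By probe sets those calls were 4.55% at 24 hrs and 11.4% at 48 hrs for 3T3-L1 and 9.3%, then 0%, for C3H/10T1/2, while 11.8%, 14.3%, 7.72% and 5.41% of all tested were called in either direction. With DMSO in C3H/10T1/2, Nfkbia was higher at 4 hrs (0.49, adjusted p = 0.018) and 24 hrs (0.60, 0.00151) than at 1 hr. These calls were on 1 of its probe sets only. Other genes of the NF-kappaB list moved both ways there. Higher were Tlr4 (0.92) and Nfkbie (0.85) at 4 hrs, and Tnfrsf1a (0.45) and Il1r1 (1.42) at 24 hrs. Tnfrsf1a, Tlr3 and Ikbkg were higher at the time between. Lower were Myd88 at 4 hrs (-0.496), Rela at 24 hrs (-0.61), and Relb, Rela and Nfkb2 at 48 hrs (-0.737, -0.725 and -0.724). Of 18 interferon-response genes, 1 fell with RSG at 24 hrs in 3T3-L1 (the immunoproteasome gene Psmb8, -0.63), 3 at 48 hrs (Psmb8, Ifit3 and Tap1), 2 at 24 hrs in C3H/10T1/2 (Psmb9, -0.92, and Gbp2, -1.05) and none at 48 hrs. Its probe set shares of 5.0%, 15.0%, 11.1% and 0% stand beside the same background as those of the NF-kappaB list.

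Markers of preadipocytes and fibroblasts moved at the same times as the chemokines. Of 7 such genes, RSG lowered 3 at 24 hrs (Col3a1, -1.20 on 1 probe set and -0.49 on another, Pdgfrb, -1.27, and Dlk1, -0.70) and 6 at 48 hrs in 3T3-L1, and 3 at each of 24 and 48 hrs in C3H/10T1/2 (Pdgfrb, -1.40 at 24 hrs, Pdgfra, -0.80, and Col1a1, -1.09). By probe set these calls were 33.3% and 66.7% for 3T3-L1, with 33.3% and 25.0% for C3H/10T1/2. Of all probe sets tested for 3T3-L1, 6.97% (24 hrs) and 8.09% (48 hrs) were called lower. For C3H/10T1/2 the matching shares were 4.07% and 2.62%. The summed signal of the 7 genes was 5910.0 to 7729.0 with RSG and 9165.7 to 11731.5 with DMSO at 24 hrs in 3T3-L1, and 7389.8 to 8112.9 and 11579.9 to 12122.8 at 48 hrs. The sum of C3H/10T1/2 arrays was 5985.6 to 7783.2 with RSG and 8641.1 to 11185.6 with DMSO at 24 hrs, and 6317.1 to 7139.7 and 8653.0 to 8827.2 at 48 hrs. The groups did not overlap at any of these, and the part of such cells in the chemokine results was not tested.

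With DMSO in C3H/10T1/2 the same sum was 7175.9 to 8842.2 at 4 hrs and 8641.1 to 11185.6 at 24 hrs, against 6351.2 to 7778.9 at 1 hr, with Pdgfra called higher at 4 and 7 hrs (1.01 and 1.07) and 4 of the 7 genes at 24 hrs. The sums at 4 and 1 hrs overlap, and the part of such cells in the changes over time was not tested. The adipocyte markers moved too. In 3T3-L1 at 24 hrs Fabp4, a fatty acid carrier, was higher with RSG (1.46 on 1 probe set and 1.35 on another). Further Fabp4 probe sets, called over the average of all times (0.198 and 0.262), were not called at 24 hrs. The first of these had a median signal of 5980.8 in 3T3-L1. At 24 hrs the lipid droplet gene Cidec was also higher (1.14), and Pparg, the gene of the RSG receptor, was lower (-1.03). Cidec (0.84) and Pparg (-0.83) were still called at 48 hrs. The calls at 24 and 48 hrs are 36.4% and 18.2% of 11 probe sets of the list. Of all tested, 11.8% and 14.3% were called in either direction. The summed signal of the adipocyte markers was 34461.9 to 43075.4 with RSG and 28196.7 to 35003.4 with DMSO at 24 hrs, which overlap. In C3H/10T1/2 none was called at 24 hrs and Pparg was lower at 48 hrs (-0.61). With DMSO in C3H/10T1/2, Cebpa (0.52) and Pparg (0.50) were higher at 4 hrs than at 1 hr, where the summed signal was 25852.6 to 29039.6, against 25823.0 to 26843.0 at 1 hr. The part of these changes in the chemokine results was not tested. The leukocyte list of 11 genes had no RSG call at 24 or 48 hrs in either line, and its summed signal overlapped between treatments, with 517.9 to 558.7 with RSG and 441.5 to 604.1 with DMSO at 24 hrs in 3T3-L1 and 453.5 to 603.6 and 457.1 to 571.7 in C3H/10T1/2. The endothelial list had none either. Over time with DMSO in C3H/10T1/2 the macrophage gene Cd68 was lower at 24 and 48 hrs than at 1 hr (-1.32 and -2.11), and its part was not tested either.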

How the data were processed

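The 71 arrays held MAS 5.0 signal intensities as the authors deposited them, named as MAS5 in the submitters' processing notes. Each array was globally scaled, and its trimmed mean (2% removed at each end) was 150.05 to 150.07. Of 22690 probe sets, 64 control probe sets were set aside, and of the other 22626 the platform annotation gave 20380 with 1 gene, 691 with several and 1555 with none. The 4 chemokine probe sets annotated to several genes were set aside. The 132 signals of 0 were set to 0.1, and signals were then taken to log2. The array count limits the precision. No array held values identical to another's.

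A probe set was tested in a line if any of the 12 group means was 19.9 or more. The limma package (version 3.58.1 in R 4.3.3, with Python 3.11.15 for tables) fitted 1 mean per group over all arrays of a line, or over all 71 for differences between lines, with an intensity trend. Benjamini-Hochberg adjustment ran over all probe sets tested, and calls had an adjusted p under 0.05. Fits were tested on simulated data. Where all arrays of a group were under the presence level, a fold is given as a bound against that level. The members and the gene lists (chemokine receptors and other chemokines, NF-kappaB and Toll-like receptors, interferon response, and markers of adipocytes, preadipocytes and fibroblasts, leukocytes and endothelium) were chosen with earlier results of these data known.

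All 30 genes were named. Values by array were given for those called, the range for others, and of several probe sets the 1 with the highest mean signal stood for a gene unless others differed. List genes were named from the smallest adjusted p at 24 or 48 hrs, up to 3 per list, line and direction, while Cxcr4, Nfkbia and the other NF-kappaB list genes, Cd68, Cebpa and Pparg over time, and marker genes named as absent, were chosen after their values were seen.

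Replicate numbers were checked by correlating the deviations from the group means of same-numbered RSG and DMSO arrays. In C3H/10T1/2 all 18 pairs were over 0.1 (0.132 to 0.307), so the numbers were taken to pair the samples, and in 3T3-L1 14 of 17 were. The methods state that replicates were differentiated in separate batches, but which number marks which batch is not given in the sources used here. Values with the replicate block stand beside results that it changed in either line. Alternatives were no trend, a floor at the presence level, no filter, quantile normalization, the methods' analysis of variance with a 1.2-fold threshold, the replicate block, only the groups compared, 1 probe set per gene, and leaving out each array.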

Additional observations from a re-analysis of the deposited data

Results flagged for a closer look

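In a joint fit of both lines, 7 changes over time with DMSO differed between 3T3-L1 and C3H/10T1/2, which is why they are listed here. The test was chosen after the data had been seen. For Ccl2 the log2 change since 1 hr in 3T3-L1 minus that in C3H/10T1/2 was -1.634 at 4 hrs, -1.475 at 7 hrs and -1.403 at 24 hrs. For Ccl7 it was -1.81 at 4 hrs, -1.693 at 7 hrs and -1.853 at 24 hrs, and for Ccl8 it was -1.28 at 48 hrs. The comparisons of a line share its 1-hr DMSO arrays, so the values of 1 gene at several times are not independent.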

How the results depend on the processing

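The RSG calls over the 6 times, 11 in 3T3-L1 and 6 in C3H/10T1/2, became 30 (19 of them lower) and 14 with the methods' unadjusted p and 1.2-fold threshold, and 7 and 3 with that p adjusted. With only the groups compared in each fit, C3H/10T1/2 gave 11. The calls over time with DMSO in 3T3-L1 (2) became 1 with no trend, no filter, quantile normalization or the methods' adjusted p, 19 with its unadjusted p and 0 with only the groups compared. By the methods' unadjusted p, the late-minus-early calls were 8 in 3T3-L1 (3 by limma) and 7 in C3H/10T1/2 (3), and the averaged calls 6 in C3H/10T1/2 (3). The 7 differences between lines in change over time became 4 with no trend, 1 with quantile normalization, 22 with the methods' unadjusted p and 4 with it adjusted. The 0 differences in RSG effect became 8 with that unadjusted p and 2 with signals raised to the presence level, both of Cxcl9, which 3T3-L1 lacks. Raising made all RSG arrays of Cxcl9 in C3H/10T1/2 equal, so those calls add no support. Quantile normalization turned the Ccl28 level difference to -0.034. The cause was not tested.

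With the replicate number as a block, C3H/10T1/2 gave 12 RSG calls, 25 over time with DMSO, 7 averaged and 5 late minus early. In 3T3-L1, where the correlation was over 0.1 in 14 of 17 pairs (0.019 to 0.261), the block gave 15 RSG calls, 4 over time with DMSO, 8 averaged and 7 late minus early. In the joint fit it gave 15 differences in change over time and 1 in RSG effect. No call made without the block was lost under it.

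Leaving out 1 array at a time gave 7 to 12 RSG calls for 3T3-L1 and 3 to 7 for C3H/10T1/2 (3 without DMSO replicate 3 at 24 hrs). The 7 in 3T3-L1 came without DMSO replicate 2 or RSG replicate 1 or 2 at 24 hrs, or DMSO replicate 1 or RSG replicate 2 at 48 hrs. It gave 0 to 3 and 11 to 14 calls over time with DMSO in 3T3-L1 and in C3H/10T1/2 (0 without DMSO replicate 1 at 1 hr, and 1 in 3T3-L1 without replicate 2 or 3 at 1 hr or at 48 hrs), 7 to 9 and 2 to 5 averaged (5 without DMSO replicate 3 or RSG replicate 2 at 2 hrs), 2 to 4 and 3 to 6 late minus early (6 without DMSO replicate 2 at 2 hrs), 21 to 24 levels between lines, 2 to 7 differences in change over time (2 without replicate 3 of DMSO at 1 hr of either line) and 0 to 0 in RSG effect.

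Of single results, 521 kept direction and side of the threshold under the other settings, 62 lost the call and 1 reversed. After quantile normalization Cxcl1 in 3T3-L1 at 24 hrs (adjusted p = 0.051), Ccl9 in 3T3-L1 at 48 hrs (0.0569) and Cxcl9 of C3H/10T1/2 at both late times (0.0565 and 0.0549) were no longer called. With no trend, calls lost were Ccl2 at 24 hrs (0.0576 in 3T3-L1 and 0.0597 in C3H/10T1/2), Cxcl12 at 48 hrs (0.0545), Ccl5 and Ccl8 over time (0.0564 and 0.06) in 3T3-L1 and the 3 Ccl2 differences between lines (0.0567 to 0.0585). With only the groups compared, 3T3-L1 lost Cxcl10 at 24 and 48 hrs (0.0691 and 0.108) and Ccl9 (0.215), Ccl27a (0.136) and Cxcl12 (0.0686) at 48 hrs. With 3 arrays a group and signals near the presence level, folds of Cxcl9, Cxcl10, Ccl25 and Ccl27a are least certain.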
